A study of Mus musculus with 4 samples.

Results

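RNA sequencing of bone marrow-derived macrophages (BMDMs) was read for 35 genes of the extracellular matrix and of stromal cells, among the 16375 genes that the deposited table lists. The 35 were taken by name, with earlier results of these data known. They were 10 collagen genes, 24 genes of other matrix, matrix-modifying, growth factor binding, receptor and contractile proteins, and the chemokine gene Cxcl12. All 35 were found and all passed the filter on low values, a mean of at least 50 fragments over the 4 libraries. Within them, 11 genes that are typical products of mesenchymal cells (the 10 collagen genes and Bgn) were set against Fn1 and Thbs1, matrix genes that macrophages also make.

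The 4 groups had 1 library each. WT control was BMDMs of wt mice without butyrate, WT butyrate the same kind of cells after 24 h with 500 µM butyrate, and LNCKO control and LNCKO butyrate were the corresponding cells of mice whose lncLy6c gene had been cut out with CRISPR-Cas9 on a C57BL/6J background. The cells had been grown from bone marrow cells in medium with M-CSF, the growth factor of macrophages, and neither the age nor the sex of the animals of each library is given. Neither library name of the LNCKO samples spells its condition, so their groups rest on the sample titles, and the targeted lncLy6c transcript itself was not analysed here. The depth was 53363944 to 65521713 fragments per library, recovered from the values themselves. Ddx3y, a gene of the Y chromosome, had 65 and 49 fragments in WT and 6128 and 7764 in LNCKO, so sex and genotype cannot be told apart in any comparison of WT with LNCKO. Bgn was the 1 member on the X chromosome. Values of the 4 libraries are given in 1 order throughout: WT without and with butyrate, then LNCKO without and with butyrate. FPKM is the deposited unit, fragments per 1000 bases of gene span and 1000000 fragments. With 1 library per group no difference below has a replicate check and no p-value was computed. Intervals are exact Clopper-Pearson 95% intervals of the fragments of the libraries compared, which cover counting error only: fragments without molecular identifiers are not independent molecules.

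The extracellular matrix is the protein scaffold that fibroblasts, reticular stromal cells, osteoblasts and mural cells lay down around themselves. Collagen chains are modified and folded in the endoplasmic reticulum, assembled into trimers, secreted, trimmed and cross-linked by lysyl oxidases, while proteoglycans, fibrillins, latent TGF-beta binding proteins and matricellular proteins organise the fibres and hold growth factors. In bone marrow this work falls mostly to stromal cells. Macrophages take up and degrade collagen and themselves secrete fibronectin and thrombospondin.

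The macrophage label was checked against 10 macrophage markers, all of which were read. On the scale of fragments per 1000 bases of exon and 1000000 fragments, called the level per exon length from here on, Csf1r, the M-CSF receptor, was at 254.4 without and 254.3 with butyrate in WT, and 223.1 without and 209.3 with butyrate in LNCKO. Cd68, a lysosomal protein of macrophages, was at 481.7, 525.0, 473.8 and 509.5 in the same order. Mertk and Mrc1 were the lowest of the markers, at 29.6, 33.2, 29.7 and 31.2 and at 24.9, 23.0, 26.7 and 22.2. The collagens were far below Csf1r and Cd68 and less far below Mertk and Mrc1. The highest of the 10 collagen genes, Col1a1, reached 13.2. The 2 genes of the comparison set lay between 15.2 (Fn1 in LNCKO control) and 1075.2 (Thbs1 in WT butyrate). Thbs1 alone took 0.364% to 0.653% of all fragments of a library.

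**Figure D1:**
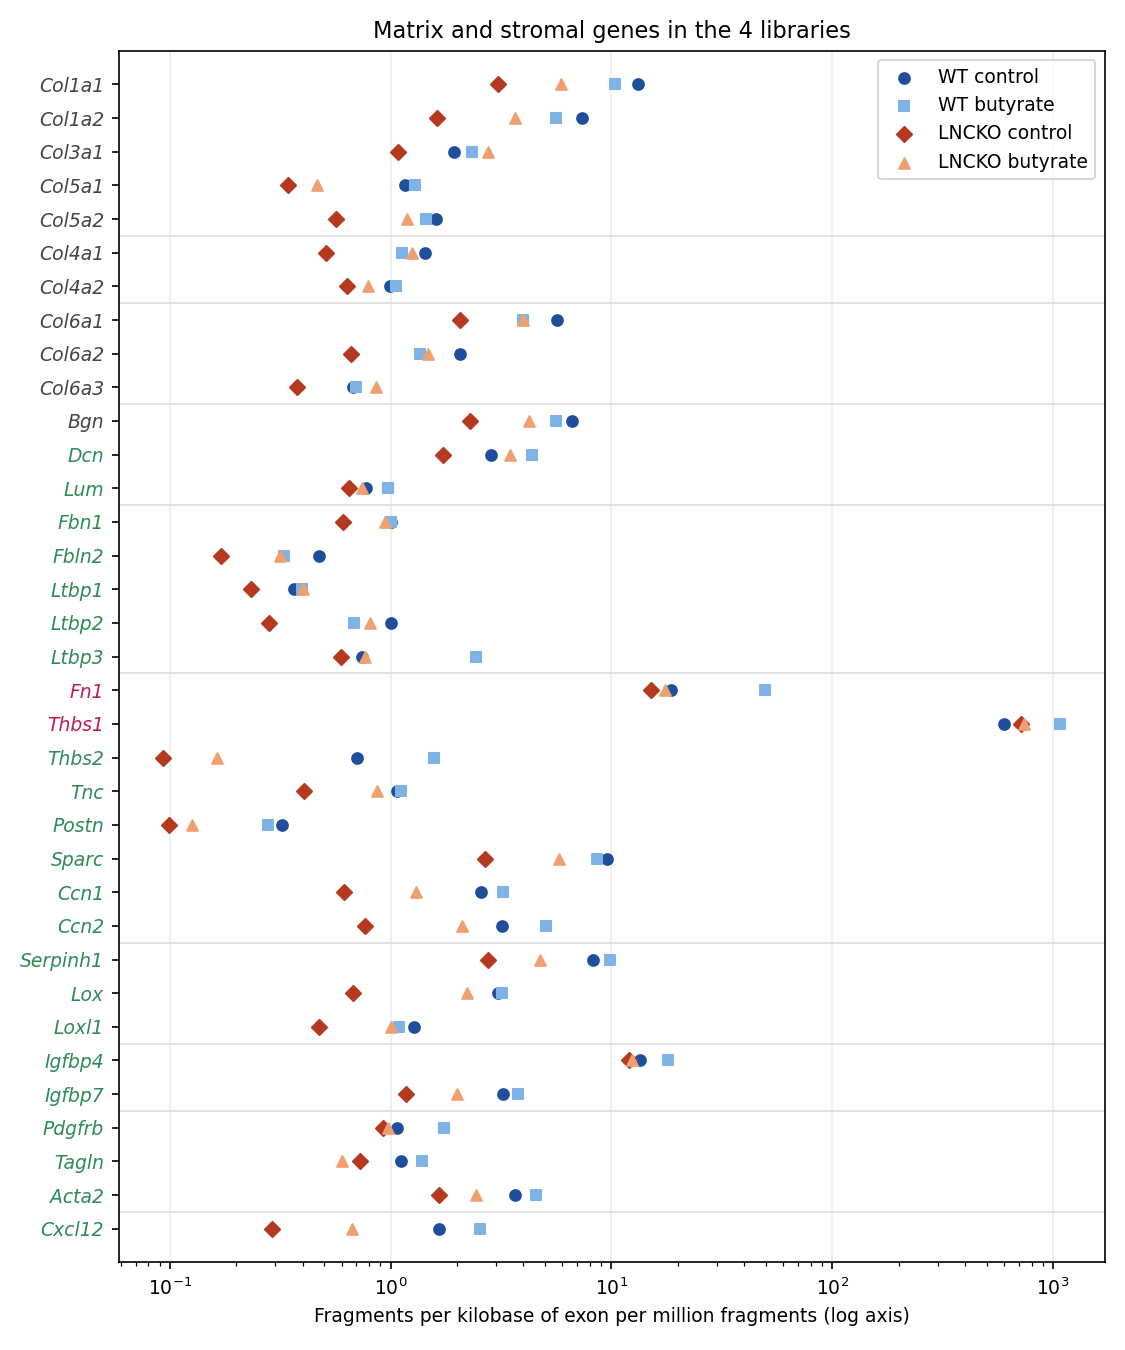
Level of each of the 35 genes (rows, grouped by role and separated by grey lines) in the 4 libraries, in fragments per kilobase of exon and 1000000 fragments on a log axis. Each point is 1 library, gene names are grey for collagens and Bgn, magenta for Fn1 and Thbs1 and green for the other 22, and the diamond of LNCKO control is the lowest of the 4 points in 33 of the 35 rows.

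LNCKO control was the lowest of the 4 libraries for 33 of the 35 genes, an order that 16.6% of the 11891 genes tested had. The exceptions were Thbs1, lowest in WT control, and Tagln, lowest in LNCKO butyrate. The highest library was WT butyrate for 20 genes, WT control for 12 and LNCKO butyrate for 3, which were Col3a1, Col6a3 and Ltbp1, against 24.4%, 23.7% and 20.4% of all genes. The most frequent order, in 16 genes, was LNCKO control below LNCKO butyrate below WT control below WT butyrate. The share of all genes with this full order was not computed.

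Without butyrate, the question was whether the LNCKO library differed from the WT library in these genes. Of the 35, 22 were at least 2-fold lower in LNCKO control than in WT control and 0 were at least 2-fold higher, against 1.23% and 0.833% of all genes tested. Lower by any amount were 34 of the 35, where 44.2% of all genes were lower. Thbs1 was the exception. The median log2 ratio of the 11 mesenchymal genes was -1.50 (SD among genes 0.50), that of all genes tested 0.02. The intervals of 32 genes lay below 0 and that of Thbs1 above it, and those of Lum and Pdgfrb held 0. The share of all genes with such intervals was not computed, so this count has nothing to be set against. For abundant genes even a small change falls outside the interval: Thbs1 with butyrate in LNCKO was at 1.03-fold (interval 1.02 to 1.04). In a bulk library, fewer cells of a type and less RNA per cell cannot be told apart.

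With butyrate, 10 genes were at least 2-fold lower in LNCKO than in WT and 0 were at least 2-fold higher, against 1.61% and 1.41% of all genes. Only Col5a1 of the mesenchymal genes was among the 10. The median of the 11 was -0.28 (SD among genes 0.54), and that of all genes 0.05. The other 9 genes were Ccn1, Ccn2, Cxcl12, Fn1, Ltbp3, Postn, Serpinh1, Tagln and Thbs2.

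**Figure D2:**
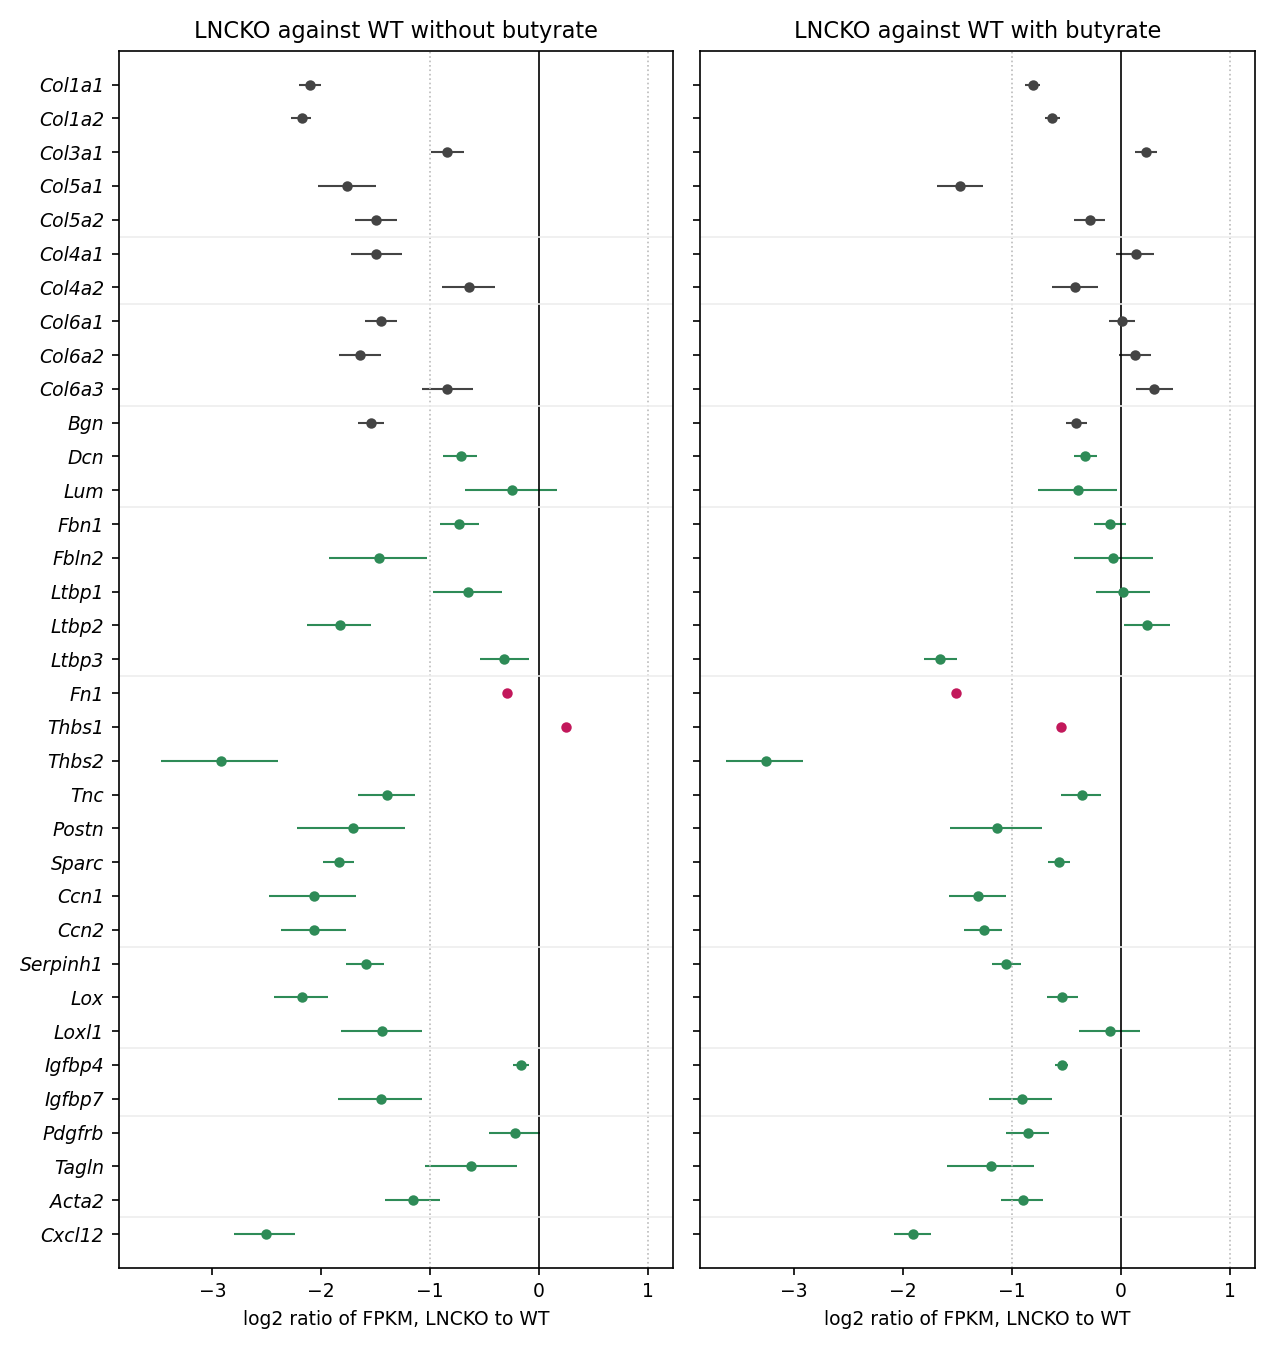
log2 ratio of FPKM of LNCKO to WT for each gene, without butyrate (left) and with butyrate (right), with bars for the 95% counting interval of 1 library against 1, a solid line at 0, and dotted lines at 2-fold. Colours are grey for collagens and Bgn, magenta for Fn1 and Thbs1 and green for the other genes. On the left 22 genes lie beyond the lower dotted line, on the right 10.

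Within a genotype, butyrate was compared with control. In WT, 3 of the 35 genes, Fn1, Ltbp3 and Thbs2, were at least 2-fold higher with butyrate and 0 were at least 2-fold lower, against 1.76% and 1.03% of all genes. In LNCKO, 15 were at least 2-fold higher and 0 lower, against 1.14% and 0.496%. The 15 were Ccn1, Ccn2, Col1a2, Col3a1, Col4a1, Col5a2, Col6a2, Col6a3, Cxcl12, Dcn, Lox, Loxl1, Ltbp2, Sparc and Tnc. The 3 genes of the WT comparison were also higher with butyrate in LNCKO, Fn1 1.15-fold, Ltbp3 1.29-fold and Thbs2 1.75-fold. The median log2 ratio of the 11 mesenchymal genes was -0.24 (SD among genes 0.29) in WT and 1.07 (SD among genes 0.33) in LNCKO, and the medians of all genes were -0.05 and -0.02. In LNCKO 34 of the 35 were higher with butyrate by any amount, Tagln being the exception, where 42.8% of all genes were higher. Both genotype comparisons and both butyrate comparisons use the same 4 libraries. A low value in LNCKO control therefore enters the genotype difference without butyrate and the butyrate difference in LNCKO alike, and the comparisons are not independent of each other. All ratios were taken without a pseudocount: with 1 FPKM added to each value, the 22 and 10 genes at least 2-fold lower in LNCKO became 4 and 1, and the 3 and 15 at least 2-fold higher with butyrate became 1 and 0, and the mesenchymal medians became -0.23 (LNCKO against WT without butyrate), -0.02 (with butyrate), -0.03 (butyrate in WT) and 0.27 (butyrate in LNCKO). Only 9 of the 35 genes had a mean FPKM of at least 1. The mesenchymal genes among them were Col1a1, Col1a2 and Bgn, with log2 ratios of LNCKO to WT without butyrate of -2.10, -2.18 and -1.54. Their median, -2.10, was therefore the value of Col1a1 alone. With a pseudocount of 0.1 the median of all 11 mesenchymal genes without butyrate was -0.66.

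**Figure D3:**
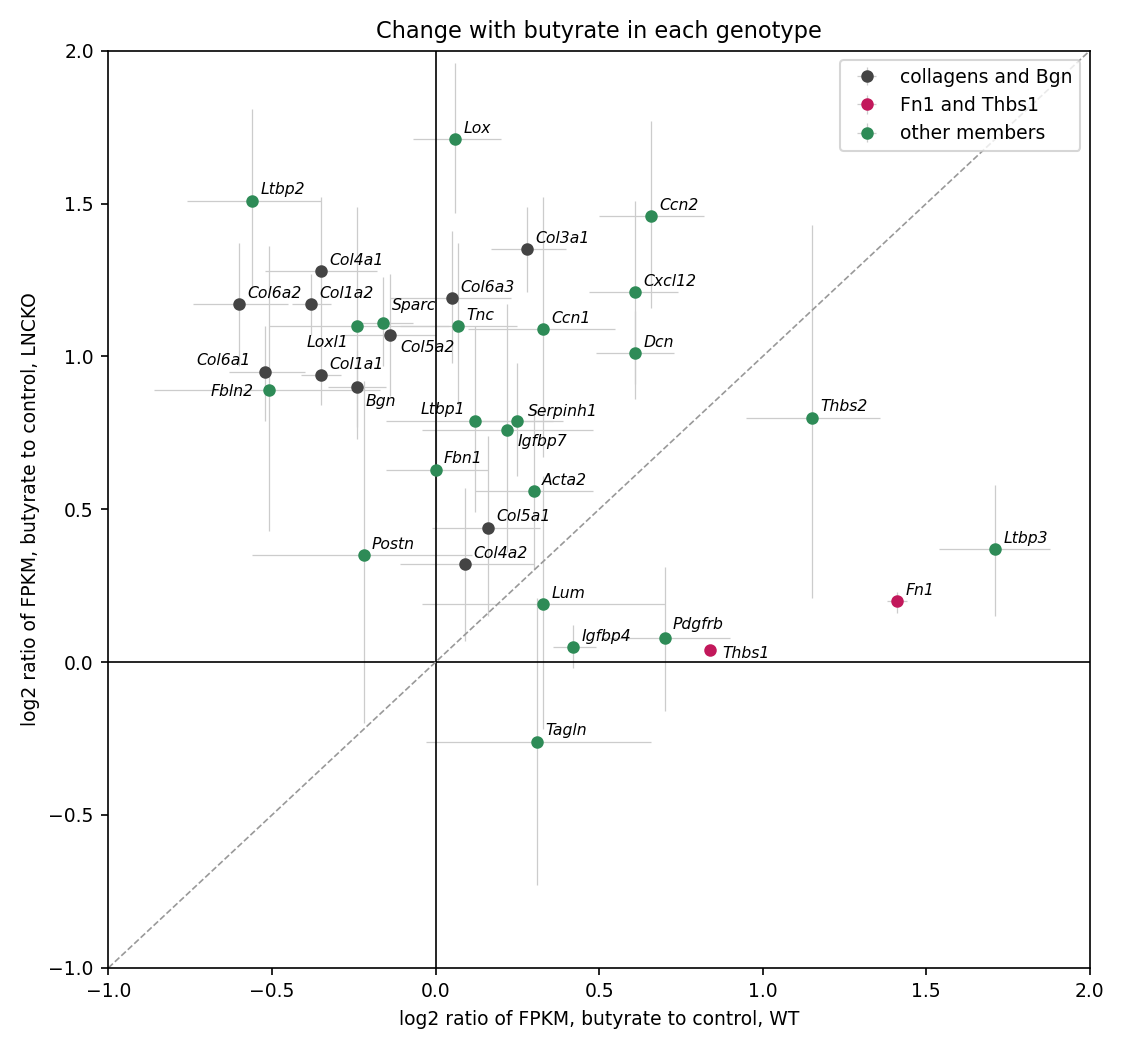
log2 ratio of FPKM, butyrate to control, in WT (x axis) and in LNCKO (y axis) for each of the 35 genes, with 95% counting intervals as grey bars and equal changes on the dashed line. Collagens and Bgn (grey) lie above the dashed line, with log2 ratios in LNCKO from 0.32 (Col4a2) to 1.35 (Col3a1), while Fn1 and Thbs1 (magenta) lie below it.

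Subtracting the butyrate change in WT from that in LNCKO gave a difference of at least 2-fold in favour of LNCKO for 15 genes and in favour of WT for 2, Fn1 and Ltbp3, against 2.17% and 2.22% of all genes. All 11 mesenchymal genes were on the LNCKO side, as were 56.2% of all genes, and 9 of the 11 were so by at least 2-fold, and their median was 1.21 on the log2 scale. Fn1 and Thbs1 were both on the WT side, at -1.21 (counting SE 0.02) and -0.80 (counting SE 0.01). The difference between the genotypes was not tested, for want of replicates.

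Of the collagens, the fibrillar ones had the most fragments. Col1a1 (ENSMUSG00000001506, chromosome 11 of GRCm38 from 94936224 to 94953042, + strand) and Col1a2 (ENSMUSG00000029661, chromosome 6 from 4504814 to 4541544, + strand) encode the chains of type I collagen, the main fibre of bone, skin and tendon. The FPKM of Col1a1 was 5.14 without and 4.04 with butyrate in WT, and 1.20 without and 2.31 with butyrate in LNCKO, from 4872, 4022, 1076 and 2541 fragments. That of Col1a2 was 2.49, 1.91, 0.548 and 1.23, from 5149, 4149, 1075 and 2969 fragments. Both genes were highest in WT control, somewhat lower in WT butyrate and lowest in LNCKO control. Without butyrate Col1a1 was 4.28-fold and Col1a2 4.53-fold lower in LNCKO, and with butyrate they were 1.75-fold and 1.55-fold lower. The log2 ratio of butyrate to control was -0.35 (interval -0.41 to -0.29) in WT and 0.94 (interval 0.84 to 1.05) in LNCKO for Col1a1, and -0.38 (interval -0.44 to -0.32) and 1.17 (interval 1.07 to 1.27) for Col1a2.

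The chains of type I collagen kept close to each other. On the scale of level per exon length, the ratio of Col1a1 to Col1a2 was 1.79 (interval 1.72 to 1.86) without and 1.84 (interval 1.76 to 1.92) with butyrate in WT, and 1.90 (interval 1.74 to 2.06) without and 1.62 (interval 1.54 to 1.71) with butyrate in LNCKO, so the highest was 1.17 times the lowest. Over the same libraries the level of Col1a1 itself ranged from 3.07 to 13.2.

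Col3a1, the type III collagen that runs with type I in soft tissue and reticular fibres, had an FPKM of 0.495 without and 0.603 with butyrate in WT, and 0.277 without and 0.707 with butyrate in LNCKO. Unlike the type I chains it was highest in LNCKO butyrate. It was 1.79-fold lower in LNCKO without butyrate and 1.17-fold higher with butyrate (log2 interval 0.13 to 0.33). The ratio of Col3a1 to Col1a1 was 0.146, 0.226, 0.350 and 0.465 in the 4 libraries, a spread of 3.18 times with intervals that do not overlap. It was highest in LNCKO butyrate and lowest in WT control.

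Type V collagen, a minor component that sets the width of type I fibres, divided between its chains. Col5a1 had 556, 650, 155 and 258 fragments in the 4 libraries, and was 3.39-fold lower in LNCKO without butyrate and 2.79-fold lower with it. Col5a2 had 864, 822, 290 and 748 fragments, and was 2.82-fold and 1.22-fold lower. The low value of Col5a1 thus held in both LNCKO libraries and that of Col5a2 mainly in LNCKO control. Their ratio per exon length went from 0.893 (interval 0.805 to 0.991) in WT butyrate to 0.390 (interval 0.337 to 0.449) in LNCKO butyrate.

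Type IV collagen forms the network of basement membranes. Col4a1 and Col4a2 stand head to head on chromosome 8 of GRCm38, Col4a1 on the - strand from 11198423 to 11312826 and Col4a2 on the + strand from 11312805 to 11449287, and share the segment between their starts. Col4a1 had 608, 501, 204 and 610 fragments in the 4 libraries, and Col4a2 had 371, 415, 225 and 344. Col4a1 in LNCKO butyrate stood near WT butyrate (log2 ratio 0.14, interval -0.04 to 0.31) and below WT control (FPKM 0.0814 against 0.0942). Its log2 ratio of butyrate to control was 1.28 in LNCKO and -0.35 in WT. Col4a2 differed less, with 0.32 in LNCKO and 0.09 in WT. The ratio of Col4a1 to Col4a2 per exon length was 1.45, 1.07, 0.804 and 1.57 in the 4 libraries, the highest 1.96 times the lowest, so these chains were less closely matched than those of type I collagen. Their spans overlap on opposite strands, and whether the counting used the strand is not stated.

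Type VI collagen makes beaded filaments around cells. Col6a1 had an FPKM of 1.43 without and 0.999 with butyrate in WT, and 0.522 without and 1.01 with butyrate in LNCKO. Col6a2 had 0.615, 0.406, 0.197 and 0.443, and Col6a3 had 0.103, 0.106, 0.0576 and 0.132. All 3 were lowest in LNCKO control, and in LNCKO butyrate they stood at or above the value of WT butyrate, with log2 ratios of 0.01, 0.13 and 0.31. Col6a1 and Col6a2, neighbours on chromosome 10, kept a ratio per exon length of 2.69 to 3.14 over the libraries. The ratio of Col6a3, on chromosome 1, to Col6a2 was 0.327 in WT control and 0.511 to 0.580 in the other libraries.

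**Figure D4:**
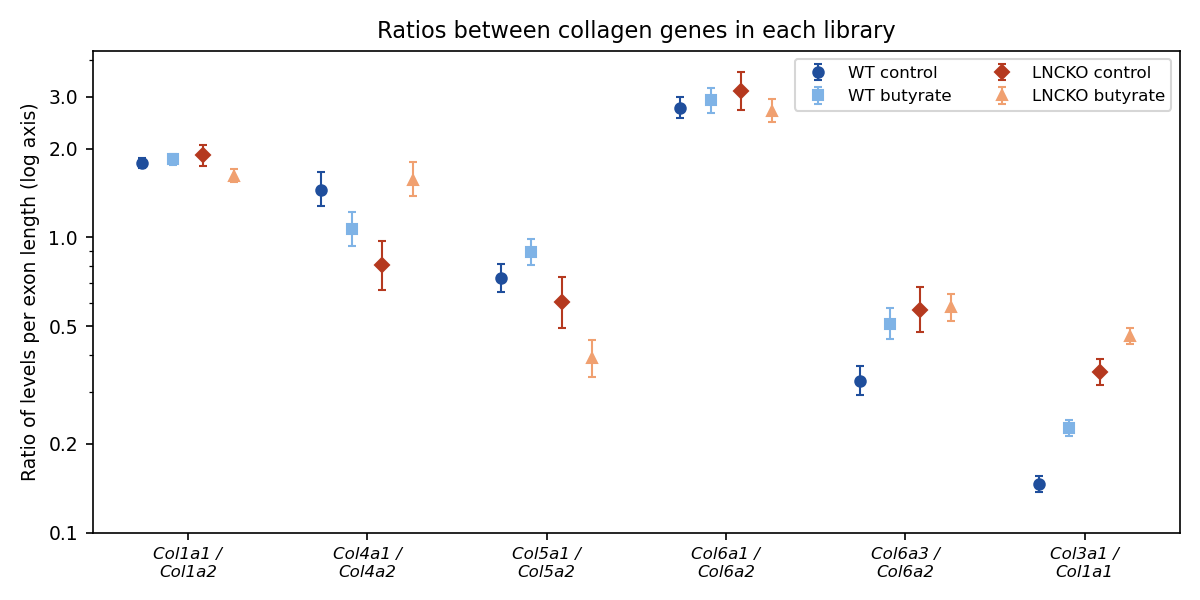
Ratio of the levels per exon length of pairs of collagen genes in each of the 4 libraries, on a log axis, with bars for the 95% counting interval. Col1a1 to Col1a2 and Col6a1 to Col6a2 spread by 1.17 times between the lowest and the highest library, Col3a1 to Col1a1 by 3.18 times.

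Among the small leucine-rich proteoglycans, which bind collagen fibrils and growth factors, Bgn (biglycan) had an FPKM of 3.28 without and 2.78 with butyrate in WT, and 1.13 without and 2.10 with butyrate in LNCKO. It followed the type I chains, 2.91-fold lower in LNCKO without butyrate and 1.32-fold lower with it. Dcn (decorin) had 0.432, 0.658, 0.262 and 0.525, and was higher with butyrate in both genotypes, 1.52-fold in WT and 2.01-fold in LNCKO. Lum (lumican), with 85 to 141 fragments a library, varied least of the 3, and its interval held 0 for butyrate in either genotype. The ratio of Bgn to Dcn per exon length was 2.33 in WT control and 1.22 to 1.32 in the other libraries.

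Fibrillin microfibrils and the proteins that bind to them or tether latent TGF-beta were lowest in LNCKO control in 5 of 5 genes, and differed from each other in the butyrate change in WT. Fbn1 (fibrillin) was 1.66-fold lower in LNCKO control than in WT control, and with butyrate its interval held 0. Ltbp2, which binds microfibrils, had 462, 330, 123 and 431 fragments in the 4 libraries. Its log2 ratio of butyrate to control was -0.56 in WT and 1.51 in LNCKO, and this difference of 2.07 (counting SE 0.18) was the widest of all 35 genes. Fbln2, with 58 to 170 fragments, and Ltbp1, with 133 to 282, were also lowest in LNCKO control.

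Ltbp3, which aids the secretion of latent TGF-beta, stood apart in that change. It had 380, 1303, 289 and 457 fragments, and WT butyrate stood apart at 3.27-fold the value of WT control (interval 2.91 to 3.67), while butyrate in LNCKO gave 1.29-fold. In the size of its WT change it was nearer to Fn1 than to Ltbp1 and Ltbp2, and like these it was lower in LNCKO than in WT without butyrate (log2 ratio -0.32, interval -0.54 to -0.09).

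Fn1 (fibronectin, ENSMUSG00000026193, chromosome 1 from 71585520 to 71653200, - strand) links collagen to cell surface integrins. Its FPKM was 3.22 without and 8.56 with butyrate in WT, and 2.63 without and 3.01 with butyrate in LNCKO, from 12295, 34293, 9505 and 13370 fragments. WT butyrate was the single high library, 2.66-fold above WT control (interval 2.60 to 2.71) and 2.84-fold above LNCKO butyrate. Thbs1 (thrombospondin, ENSMUSG00000040152, chromosome 2 from 118111876 to 118127133, + strand), a secreted glycoprotein that activates latent TGF-beta, had an FPKM of 238.3, 428.0, 284.3 and 292.9. It too was highest in WT butyrate, 1.80-fold above WT control (interval 1.79 to 1.81), and LNCKO control and LNCKO butyrate differed by 1.03-fold. Without butyrate it was 1.19-fold higher in LNCKO, the opposite direction to the other 34 genes.

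The mesenchymal genes and Fn1 with Thbs1 were then set side by side, with no test. The median log2 ratio of the 11 mesenchymal genes was below the mean of Fn1 and Thbs1 for butyrate in WT (difference -1.37) and above it for butyrate in LNCKO (difference 0.95). For LNCKO against WT it was lower without butyrate (difference -1.48) and higher with it (difference 0.74). With butyrate the sets overlapped: Thbs1, at -0.55, lay above Col1a1, Col1a2 and Col5a1. In summed fragments per 1000000, the mesenchymal genes had 329.6 without and 272.7 with butyrate in WT, and 100.2 without and 207.0 with butyrate in LNCKO. Fn1 and Thbs1 had 3854.4, 7109.2, 4515.4 and 4672.6. The other 22 members had 251.5, 319.8, 127.0 and 193.0. By this sum the LNCKO control library was the lowest for the mesenchymal genes and for the other 22, and WT control was the lowest for Fn1 and Thbs1, a sum of which Thbs1 made 91.9% to 96.1%. Fn1 alone, at 218.0, 579.3, 178.1 and 204.1, was lowest in LNCKO control.

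**Figure D5:**
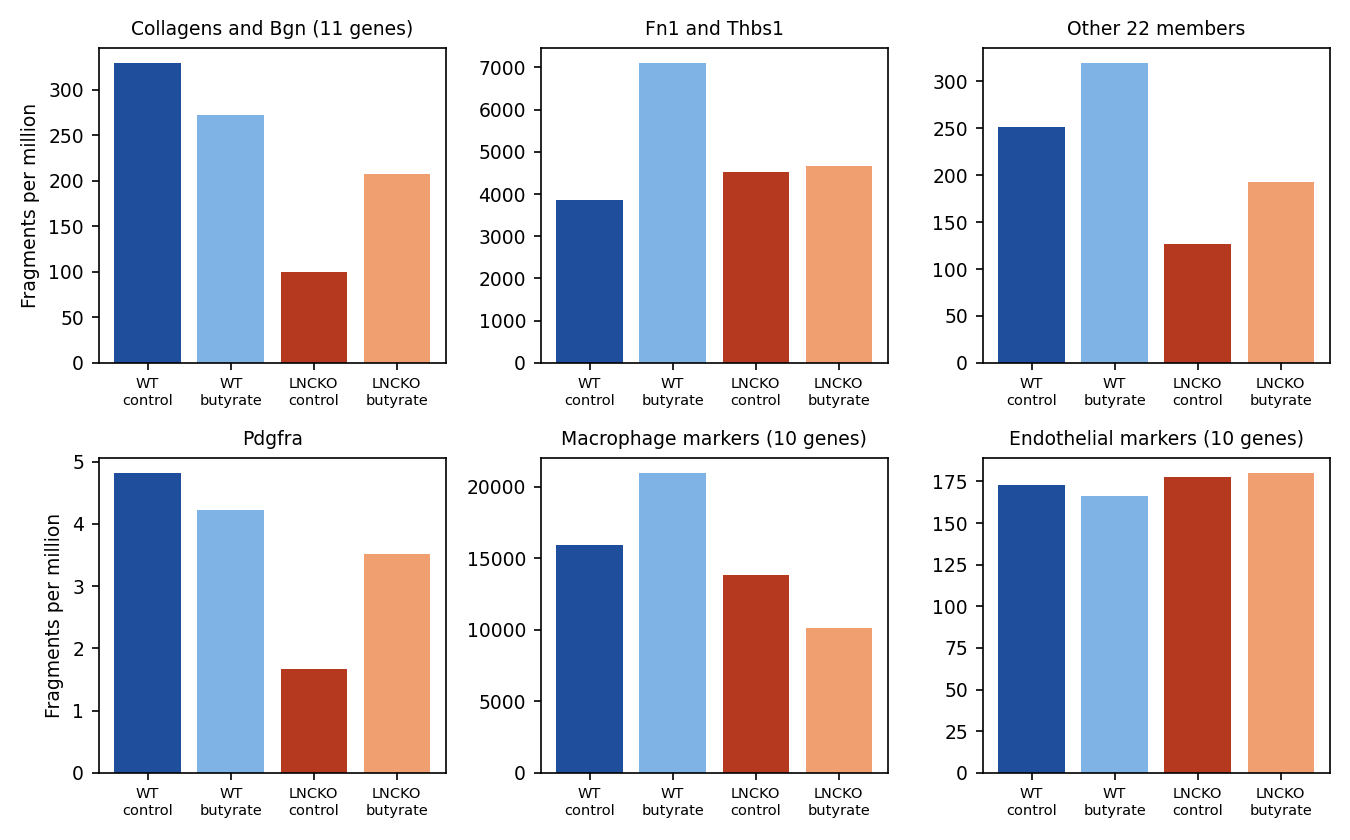
Summed fragments per 1000000 in each of the 4 libraries (1 bar per library, axes from 0, scales differing between panels) for the collagens and Bgn, Fn1 and Thbs1, the other 22 members, Pdgfra, and the macrophage and endothelial marker lists. For collagens and Bgn the bar of WT control is at 329.6 and that of LNCKO control at 100.2, and the endothelial bars, of which Pecam1 makes 63.7% to 71.1%, lie between 166.2 and 180.3.

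The remaining matricellular proteins, which sit in the matrix and act on cells more than as structure, were lower in LNCKO. Thbs2 had 279, 651, 35 and 75 fragments in the 4 libraries, so both LNCKO libraries were far below both WT libraries. It was 7.54-fold lower in LNCKO without butyrate and 9.61-fold lower with it, the widest genotype differences of the 35 genes, and 2.22-fold higher with butyrate in WT. Thbs1 and Thbs2, members of 1 family, differed in direction without butyrate.

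Ccn1 and Ccn2, secreted proteins that respond to serum and to mechanical load, were likewise below WT in both LNCKO libraries. Ccn1 had an FPKM of 1.73, 2.17, 0.411 and 0.873, and Ccn2 had 2.83, 4.48, 0.676 and 1.86. They were 4.20-fold and 4.19-fold lower without butyrate and 2.48-fold and 2.40-fold lower with it. Both were higher with butyrate in LNCKO, 2.12-fold and 2.76-fold, and by less in WT, 1.26-fold and 1.58-fold.

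Sparc (osteonectin), a collagen binding protein, had 2042, 1924, 539 and 1432 fragments and followed the type I chains, 3.59-fold lower in LNCKO control and 2.16-fold higher with butyrate in LNCKO. Tnc (tenascin), with 168 to 515 fragments, and Postn (periostin), with 46 to 159, were 2.63-fold and 3.27-fold lower in LNCKO control. With butyrate Tnc came to 1.29-fold and Postn to 2.20-fold below WT.

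Promoter windows of 3 genes are shown because they hold the same TATAAA element at a similar place while the genes differed: Ccn1 and Postn were over 2-fold lower in LNCKO in both treatments and Igfbp4 was not. They come from RefSeq promoters on GRCm38.p6, are written 5′ to 3′ on the strand of the gene, and lie before the gene's start.
Ccn1: ctaggcaggcatTATAAAgggcgggctccc
Postn: agcccagagctaTATAAActcagctctcca
Igfbp4: ccagggggccggTATAAAgtcccgggagcc
They lie at chr3:145649993-145650022 on the - strand, chr3:54361069-54361098 on the + strand and chr11:99041204-99041233 on the + strand. The capitals mark the TATAAA, which ends 20, 21 and 23 bases before the start. RefSeq promoters, from 250 bases before to 50 after a start, were found for 24 of the 35 genes (28 promoters), and for neither Fn1 nor Thbs1. On either strand, TATAAA was in 7 of the 28 and in 13.6% of all 32851 promoters, CCAAT in 6 and in 37.4%, GGAATG in 4 and in 14.7%, TGACTCA in 2 and in 5.20%, and the CArG box in 0 and in 1.63%. As searched, a CArG box can hold a TATAAA or a CCAAT and no other motif can hold another. A match or its lack says only which letters stand in this window.

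The collagen chaperone and the cross-linking enzymes had their lowest values in the same library as the collagens. Serpinh1 (HSP47), the chaperone that procollagen needs to fold, had an FPKM of 2.58 without and 3.07 with butyrate in WT, and 0.855 without and 1.48 with butyrate in LNCKO. Lox, a lysyl oxidase, had 1.06, 1.11, 0.234 and 0.764, and Loxl1, a relative that acts on elastic fibres, had 0.166, 0.141, 0.0611 and 0.131. All 3 were lowest in LNCKO control, 3.02-fold, 4.54-fold and 2.71-fold below WT control. With butyrate in LNCKO, Lox was 3.27-fold higher (interval 2.76 to 3.89), the widest butyrate difference of the 35 genes in that genotype.

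The insulin-like growth factor binding proteins differed from each other. Igfbp4 had 3350, 4714, 2832 and 3593 fragments, and at a level per exon length of 12.0 to 18.0 it was among the most abundant of the 35. It was 1.12-fold lower in LNCKO control and its interval for butyrate in LNCKO held 0. Igfbp7 had 220, 269, 76 and 158 fragments and was 2.74-fold lower in LNCKO control. Polr2b overlaps Igfbp7 on the opposite strand.

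Of the mural and contractile genes only Acta2 passed 2-fold without butyrate, and only Tagln with it. Pdgfrb, a receptor of pericytes and stromal cells, had 332, 568, 269 and 348 fragments and was 1.17-fold lower in LNCKO control, with an interval that held 0, and 1.81-fold lower in LNCKO butyrate. Acta2 (smooth muscle actin) had 456, 590, 193 and 349 fragments and was 2.24-fold and 1.87-fold lower. Tagln (transgelin), with 77 to 163 fragments, was 1.54-fold lower without butyrate and 2.28-fold lower with it. Pcsk7 overlaps Tagln on the opposite strand.

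Cxcl12, the chemokine by which marrow stromal cells retain haematopoietic cells, had an FPKM of 1.06 without and 1.61 with butyrate in WT, and 0.185 without and 0.428 with butyrate in LNCKO, from 766, 1223, 127 and 360 fragments. Both LNCKO libraries were below both WT libraries, 5.71-fold without butyrate and 3.76-fold with it, and butyrate went with a higher value in both genotypes, 1.52-fold in WT and 2.31-fold in LNCKO.

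Other genes of the pathway were read from lists. Of 38 further matrix genes 35 were listed and 20 passed the filter, and 5 of the 20 were at least 2-fold lower in LNCKO control than in WT control: Col8a1, Col12a1, Lama4, Lamb1 and Ogn. The median of the 20 was -0.75. The same 5 genes were the ones at least 2-fold higher with butyrate in LNCKO. Ogn, a small proteoglycan, had 51, 137, 2 and 24 fragments, and Col8a1, a short-chain collagen, 96, 148, 4 and 15, so their ratios rest on very few fragments in LNCKO control. Lama5, a laminin chain, was the 1 gene at least 2-fold higher in LNCKO control, with 76, 135, 251 and 188 fragments. Col5a3, another chain of type V collagen, did not follow Col5a1 and Col5a2: it had 489, 193, 503 and 703 fragments and in WT butyrate was lower by at least 2-fold. Efemp2 and Ogn were at least 2-fold higher with butyrate in WT, and with butyrate Col5a3 was higher and Col8a1, Lamb2 and Ogn were lower in LNCKO by at least 2-fold.

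Of 19 enzymes that process collagen, 16 passed the filter. Loxl2, Fkbp10, Pcolce and Adamts2 were at least 2-fold lower in LNCKO control, and 0 were higher. Loxl2 had 393, 425, 84 and 263 fragments and Fkbp10, a procollagen isomerase, 144, 121, 24 and 96, both again higher with butyrate in LNCKO by at least 2-fold. The median of the 16 was -0.08. P4hb, an abundant subunit of prolyl hydroxylase that all secretory cells use, had 41661, 48337, 42378 and 48442 fragments, with log2 ratios between -0.14 and 0.14. In WT 0 of the 16 passed 2-fold with butyrate, and with butyrate Adamts2 alone was at least 2-fold lower in LNCKO. Of 15 TGF-beta ligands and receptors 14 passed the filter, and 0 passed 2-fold in any of the comparisons, where at most 2.22% of all genes passed it in 1 direction, so that few or none of a list of this size would be counted. Tgfb1 had log2 ratios between -0.14 and 0.09.

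The list of 8 macrophage-made matrix genes, which holds Fn1 and Thbs1, had a median log2 ratio of 0.75 for butyrate in WT and 0.08 in LNCKO. Of the 8, 6 were higher with butyrate in WT, Fn1 alone by at least 2-fold. Vcan (versican), a large proteoglycan, had 8716, 17264, 7134 and 8609 fragments, F13a1, the transglutaminase of clotting, 46772, 79772, 41644 and 55722, and Ecm1 8441, 13774, 7242 and 10345. All 3 were highest in WT butyrate, with log2 ratios of butyrate to control from 0.64 to 0.92 in WT and from -0.02 to 0.22 in LNCKO. Spp1 (osteopontin) was higher with butyrate in both genotypes, with log2 ratios of 0.80 and 0.68. Without butyrate 0 of the 8 differed by 2-fold between the genotypes, and with butyrate Fn1 and Vcan were at least 2-fold lower in LNCKO.

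Markers of the cells that could bring matrix RNA into such a culture were read as lists, each summed over all its listed genes. Of 10 bone marrow stromal markers 7 passed the filter, and the summed fragments per 1000000 of the list, most of them from Vcam1, were 75.8 without and 115.6 with butyrate in WT, and 75.9 without and 83.0 with butyrate in LNCKO. Cxcl12, Grem1 and Pdgfra were at least 2-fold lower in LNCKO control than in WT control, and Adipoq was at 0 in both WT libraries. Vcam1, with a log2 ratio of 0.55 (interval 0.47 to 0.63), and Foxc1, with 0.44 (interval 0.07 to 0.82), were higher in LNCKO control, and Foxc1 was 2.73-fold higher in LNCKO with butyrate. Without Vcam1 the list summed to 35.5, 47.5, 17.0 and 27.0. The list holds Cxcl12, at 766, 1223, 127 and 360 fragments, and Pdgfrb, at 332, 568, 269 and 348. Both are also among the 35 genes, so these sums are not separate from them. Of 9 fibroblast markers listed 4 passed, with sums of 34.1, 41.8, 24.2 and 26.9, and of 12.9, 15.0, 6.95 and 9.72 without Pi16, the most abundant. Mfap5 was at 0 in every library, Col14a1 in both WT libraries and Dpt in LNCKO control.

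Within that list Pdgfra, a receptor of fibroblasts and stromal cells, had 272, 250, 89 and 230 fragments, and Prrx1, a transcription factor of mesenchyme, 274, 414, 73 and 215. Both were at least 2-fold lower in LNCKO control and at least 2-fold higher with butyrate in LNCKO. Thy1 went the other way, with 89, 152, 175 and 149. The part that the number of such cells has in the collagen differences was not tested.

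Of 9 osteoblast markers 3 passed, and the sums of the list of 81.1, 56.5, 80.9 and 78.8 came mostly from Runx2. Bglap2 was at 0 in every library and Bglap in 3. Of 10 mural markers 3 passed, with sums of 6.26, 7.40, 5.02 and 4.65, Myh11 at 0 in every library and Cnn1 in 3. Of 10 endothelial markers 6 passed, with sums of 172.6, 166.2, 177.9 and 180.3, and of 62.4, 60.3, 51.5 and 57.6 without Pecam1. Of the 6, 4 were lower in LNCKO control than in WT control, 0 of them by 2-fold, and Emcn was at 0 there. Cdh5, the cadherin of endothelium, had 306, 508, 219 and 489 fragments. Of 8 markers of megakaryocytes and platelets, cells rich in thrombospondin, 7 passed, with sums of 109.1, 152.7, 139.5 and 182.7, of which Pf4 made 75.5% to 79.6%. Pf4 was highest in LNCKO butyrate. Ppbp, with an FPKM of 3.73, 9.36, 4.46 and 8.25, had the library order of Thbs1, and Gp9, with 47, 79, 28 and 65 fragments, was also highest in WT butyrate. The 10 macrophage markers summed to 15924.2, 20997.8, 13822.2 and 10103.0, and to 6081.9, 6668.8, 5789.4 and 5761.6 without Lyz2, and 0 of them passed 2-fold in 3 of the comparisons, while Lyz2 was at least 2-fold lower in LNCKO with butyrate. The part of these cells in the result was not tested.

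Genes outside the 35 were ranked by how near they came to the median of the mesenchymal genes, as the largest absolute difference of log2 ratios over the 4 comparisons between 2 libraries. Of 11856 genes, 8 stayed within 0.3 and 29 within 0.5. The nearest was Pdgfra (0.05), then Col12a1 (0.10), a fibril-associated collagen, Denn2b (0.10), Peli3 (0.14), Sod3 (0.27), a superoxide dismutase of the matrix, and Cavin1, Parva and Rbfox2 (0.28 each), Adgra2 and Cdh2 (0.31 each). The 4 libraries are the only points of this likeness, and Denn2b, Peli3 and Parva had under 100 fragments in each. Col1a1 and Col1a2 themselves lay farther from the median in LNCKO control, at -2.10 and -2.18 against -1.50.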

How the data were processed

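RNA of 4 BMDM libraries was analysed. FPKM, as deposited by the authors without counts, is in fragments per 1000 bases of gene and 1000000 fragments. The paper's methods name TRIzol and an MGISEQ-2000 platform, the labels RNeasy, TruSeq and Illumina. The submitters' processing notes name GRCm38, STAR 2.5.0c, Picard 1.126, bedtools 2.17.0, HTSeq 0.6.0 and a differential expression tool, without their roles, and filters and strand use are not given in the sources used here. The deposited FPKM was found to be divided by the whole genomic span with introns: with GENCODE M21 spans and 1 total per library, 16093 of 16342 matched genes (98.5%) gave whole fragments (tolerance 0.02) in all 4 libraries, among them all 35 members. FPKM was therefore compared between libraries, and genes were compared per length of merged exons. The span of a member was 1.13 to 48.6 times its exon length, and 18 spans overlap another annotated gene.

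Changes were log2 ratios of the deposited FPKM without a pseudocount, for the 11891 genes with a mean of at least 50 fragments and above 0 in every library, and a gene was counted when it passed 2-fold. Genotype and treatment came from the sample titles. The members and lists were chosen with earlier results of these data known. Named were the 35 members, genes of the lists past 2-fold or abundant, and the 10 genes nearest to the mesenchymal median. Genes of the lists named for other values (Thy1, Prrx1, Tgfb1, Spp1, F13a1, Ecm1, Foxc1, Cdh5, Ppbp, Gp9) were chosen after these were seen. Alternatives were pseudocounts of 1 and 0.1, other filters and median-ratio scaling. The steps were tested on simulated data. Computations used pandas 2.3.3, numpy 2.4.6 and scipy 1.17.1 under Python 3.11.15, and matplotlib 3.10.9 for plots.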

Additional observations from a re-analysis of the deposited data

Results flagged for a closer look

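Of the 35 genes, 9 had lower values with butyrate in WT and higher values with butyrate in LNCKO, both outside the counting interval, so the single library of one genotype moved one way and that of the other the opposite way. The difference was not tested, since each group had 1 library. On the log2 scale, the butyrate difference in LNCKO exceeded that in WT by 2.07 for Ltbp2, 1.77 for Col6a2, 1.63 for Col4a1, 1.55 for Col1a2, 1.46 for Col6a1, 1.40 for Fbln2, 1.29 for Col1a1, 1.27 for Sparc and 1.14 for Bgn. By any amount, 12 of the 35 genes were lower with butyrate in WT and higher in LNCKO, against 23.4% of all genes tested, and no such share was computed for the count by intervals. Of the 9, 6 are among the 11 mesenchymal genes.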

How the results depend on the processing

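No paired analysis was possible because each group had 1 library. The median-ratio scaling and the absence of a filter (13515 genes) left the 5 medians, the 5 differences from Fn1 and Thbs1 and the 10 counts within the limits set (0.2 on the log2 scale, 1.5 times for a count). With a pseudocount of 1, the mesenchymal medians became -0.03 (butyrate in WT), 0.27 (butyrate in LNCKO), -0.23 (LNCKO against WT without butyrate), -0.02 (with butyrate) and 0.32 (difference of the butyrate changes). Their differences from Fn1 and Thbs1 became -1.04, 0.18 and -0.25 for the first 3, 0.88 for the fourth (0.74 without a pseudocount) and 1.23 for the last. Counts past 2-fold became 1 higher (butyrate in WT), 0 higher (butyrate in LNCKO), 4 lower (without butyrate), 1 lower (with butyrate), and 0 higher and 1 lower (difference). The difference of Cxcl12 between the butyrate changes turned from 0.60 to -0.07. With a pseudocount of 0.1 the medians were 0.83 (butyrate in LNCKO), -0.66 (without butyrate) and 0.86 (difference), the differences from Fn1 and Thbs1 0.71, -0.65 and 1.86, and the counts 4, 12 and 7. At 500 fragments, which left 17 members, the counts were 8 higher (butyrate in LNCKO), 10 lower (without butyrate), 4 lower (with butyrate) and 9 higher (difference). At a mean FPKM of 1, which left 9 members, the counts were 1, 3, 6 and 4 in the order of the comparisons and 3 higher and 1 lower for the difference. The medians were -2.10 (without butyrate) and -0.63 (with butyrate), and the differences from Fn1 and Thbs1 -2.08 and 0.40. Of the mesenchymal genes only Col1a1, Col1a2 and Bgn were left, so these medians are the single values of Col1a1 and of Col1a2.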
